A study of Mus musculus with 54 samples.

Results

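The proteasome subunit genes were followed through the development of the mouse mammary gland, from the virgin gland through pregnancy and lactation to involution. They were taken as every probe set with exactly 1 annotated gene symbol made of Psma, Psmb, Psmc, Psmd or Psme and a number, leaving out the immunoproteasome genes Psmb8 and Psmb9. The rule used symbols alone and no measured value. It found 49 probe sets of 38 genes among the 12488 probe sets of the array. By symbol, 20 probe sets of 15 genes were counted with the 20S core (Psma and Psmb) and 25 of 20 genes with the 19S cap (Psmc and Psmd). The activators (Psme) had 4 of 3 genes. Psmd5, Psmd9 and Psmd10 encode assembly chaperones but are counted with the cap in every class count. The symbol pattern also matched 2 probe sets of genes for partner proteins, Psmc3ip and Psme3ip1, which were counted apart. The 2 probe sets of Psme2 carry several symbols and so were no members. Psmb10 encodes an inducible immunoproteasome subunit as well, but is a member by the rule and is described apart from the other core genes.

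The proteasome degrades proteins that carry ubiquitin chains. Its 20S core is a barrel of stacked rings: the outer rings are made of alpha subunits (Psma genes), which gate the entrance, and the inner rings of beta subunits (Psmb genes), some of which are the proteases. The 19S cap binds ubiquitin chains, removes them, and unfolds the substrate with a ring of ATPases (Psmc genes) helped by non-ATPase subunits (most Psmd genes). Activators (Psme genes) open the core without ubiquitin. The mammary gland builds and dismantles a secretory epithelium in each reproductive cycle, and the proteasome is part of the protein turnover of every cell in it.

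The data were 54 one-colour Affymetrix arrays, 3 mice at each of 18 time points: virgin animals of 6, 10 and 12 weeks, days 1, 2, 3, 8.5, 12.5, 14.5 and 17.5 of pregnancy, days 1, 3 and 7 of lactation, and days 1, 2, 3, 4 and 20 of involution. Each array held total RNA of 1 inguinal gland of 1 mouse, with the lymph node taken out. Mating took place when the animals were 12 weeks old, the day of the plug counted as day 0.5, and involution was started by removing the pups after 7 days of lactation. Strain and genotype are not given in the labels used here, and no drug or allele is named for any group. Because whole glands were used, fewer cells of a type and less RNA per cell cannot be told apart in any result here.

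Values are signal intensities scaled by the authors to a common level, and differences are on a log2 scale after signals under 9.4 were set to 9.4. Array medians lay between 31.8 and 44.6, and the correlation of arrays within a time point between 0.875 and 0.975. The array most like it came from the same time point for 37 of the 54 arrays, and 0 pairs of arrays held identical values. A difference is called at an adjusted p under 0.05 (limma, two-sided, Benjamini-Hochberg over the 8640 probe sets that passed the filter on low signals). Marker genes of the tissue were present: all 9 luminal epithelial, 8 of 10 white adipocyte, 11 of 11 leukocyte, 8 of 8 fibroblast, 6 of 6 endothelial and 5 of 7 basal or myoepithelial genes were measured. Of the 49 members, 45 passed that filter, 18 of the core, 24 of the cap and 3 of the activators, and they covered all 38 genes. The other 4 were dim additional probe sets of Psme1, Psmc5, Psmb1 and Psmb4. Of the 45, 40 passed at every one of the 18 time points. The exceptions were Psmc4 and Psmd2 (passing at 1 time point each), the probe set 98556_at of Psmb4 (at 2), 160559_at of Psmb5 (at 16) and 160304_r_at of Psmd11 (at 17). A dim member enters only through the group where it is high, so counts are also given for the 40.

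Most of the kept members changed through the cycle, as most probe sets of the array did, and the members' folds were small. In the F test over the 18 time points 42 of the 45 kept members were called. That is near the share over all probe sets, 88.1%. Psmc5, a cap ATPase, had an adjusted p of 0.36, Psmd13, a cap subunit, 0.059, and 98556_at of Psmb4 0.052. The median range of the time point means was 2.36-fold for the members and 3.26-fold for all probe sets. It was 2.35-fold in the core (from 1.6 to 3.29), 2.42-fold in the cap (from 1.35 to 5.05) and 3.03-fold in the activators (from 2.04 to 4.82). The widest range was that of Psmd12, a cap subunit, from 340 at 6 weeks to 67.4 at lactation day 7. Psme1, which encodes a subunit of an interferon-inducible activator, followed with 4.82-fold, from 753 at pregnancy day 14.5 to 156 at lactation day 3. Next came 94796_at of Psmd11 (4.05-fold, from 926 at 6 weeks to 229 at lactation day 7), 93735_f_at of Psmc3 (3.85-fold, from 304 at pregnancy day 14.5 to 78.9 at lactation day 7) and Psmd3 (3.65-fold). Psmc4 and Psmd2, with 15 and 26 of 54 arrays at the floor, were given no place in this order. The narrowest were Psmc5 (1.35-fold), 98113_at of Psmb1 (1.6-fold) and Psmd6 (1.63-fold).

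Core and cap followed a like course. Each member was centred on its mean over the 18 time points, and the median over a class was taken per mouse. For the 20S core this median was 0.28, 0.38 and 0.27 in the 3 mice at pregnancy day 14.5, -0.30, -0.31 and -0.35 at lactation day 7, and 0.28, 0.13 and 0.12 at involution day 1. For the 19S cap it was 0.20, 0.36 and 0.13 at pregnancy day 14.5, -0.19, -0.26 and -0.38 at lactation day 7, and 0.40, 0.25 and 0.22 at involution day 1. In both classes the 3 mice of lactation day 7 lay below all mice of the 2 other time points. The median over all probe sets was -0.01, 0.03 and 0.05 at these time points. Of the 45 members, 16 had their lowest mean at lactation day 7 (7 core, 9 cap), against 15.1% of all probe sets. Pregnancy day 14.5 was the highest time point of 8 members, against 3.66% of all, and involution day 1 of 7, against 8.52%. Other members went otherwise. At 6 weeks 11 had their lowest mean and 7 their highest, against 18.4% and 14.6% of all. Lactation day 7 was the highest time point of 5, against 17.2%. At pregnancy day 17.5 mouse C stood apart in the cap, at -0.18 beside 0.16 and 0.27.

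**Figure D1:**
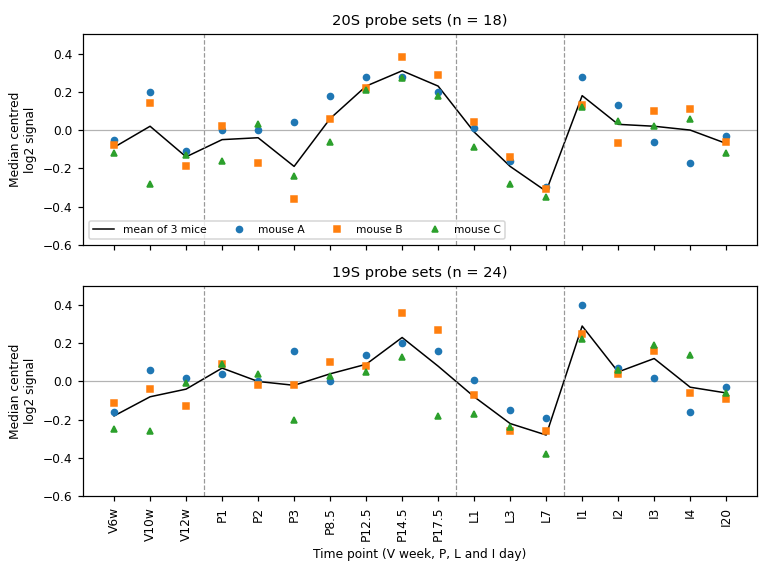
Median centred log2 signal of the 18 core and 24 cap probe sets in each mouse (points) and its mean over the 3 mice (line) at the 18 time points. Both classes are high at pregnancy day 14.5 (core mean 0.31, cap mean 0.23), lowest at lactation day 7 (-0.32 and -0.28) and high again at involution day 1 (0.18 and 0.29).

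Not every member took that course. As a description over 18 time point means, which share arrays and the authors' scaling, the median Pearson r of a member with the mean of the other members was 0.46 in the core (from -0.59 to 0.82), 0.37 in the cap (from -0.45 to 0.83) and 0.23 in the activators (from 0.04 to 0.31). For all probe sets the median r with the members' mean was -0.04. It was above 0.5 for 14 of the 45. The members closest to the rest were Psmc2 (0.83), Psma5 (0.82), 98113_at of Psmb1 (0.77), Psmd7 (0.76) and Psma4 (0.75). Some members had their highest mean in lactation, among them Psmb3 (r 0.13), Psme3 (0.04) and Psmd9 (-0.06), which followed the others little in either direction. The dim Psmd2 (-0.40) and Psmc4 (-0.39) were also highest there, at lactation day 7, the 1 time point through which each passed the filter.

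**Figure D2:**
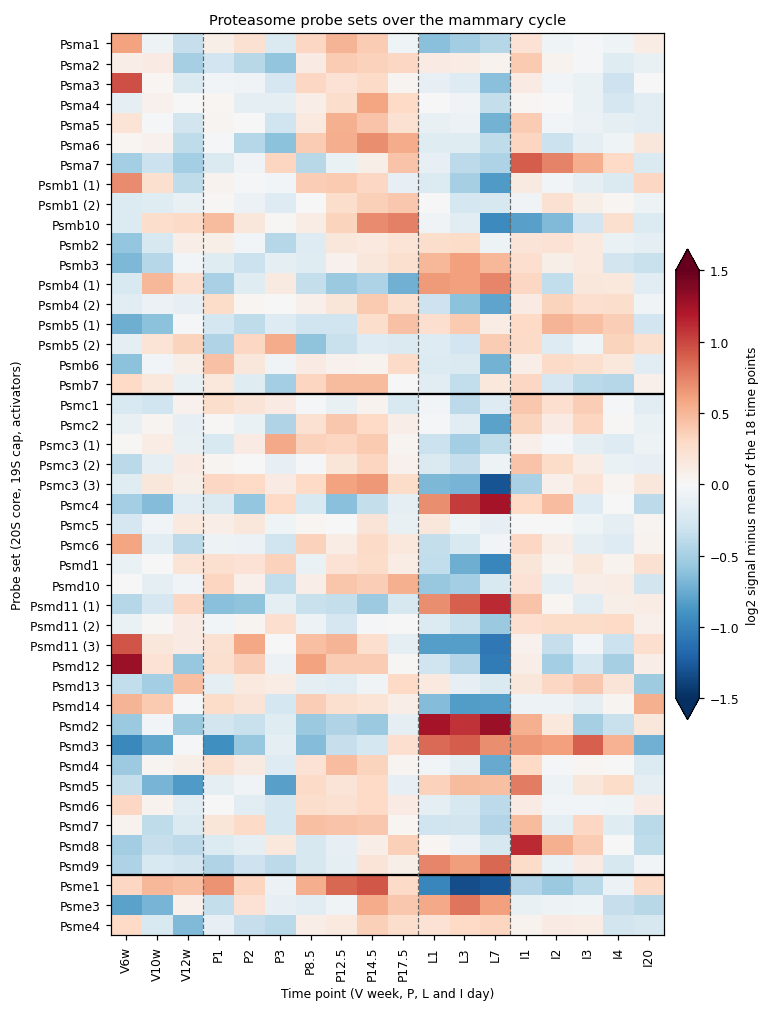
Log2 signal of the 45 kept probe sets minus each one's mean over the 18 time points, in colour, with time points across and members down (core, cap and activators set apart by lines). Numbers in brackets tell apart probe sets of 1 gene, in the order of their identifiers. Many rows turn blue at lactation day 7, while Psmd2, Psmc4, Psmd9 and Psme3 turn red there.

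The sequences upstream of 4 members are shown as examples from the 21 genes called higher at involution day 1, with values that follow. Promoters came from RefSeq (GRCm38.p6), which held 32 of the 38 genes, and 3 motifs were searched on both strands, in windows of 300 bases around the start. Proteasome genes are known targets of Nfe2l1 and Nfe2l2, which bind the antioxidant response element, and many housekeeping promoters hold ETS sites or CCAAT boxes. Each line gives the 250 bases before the start, 5' to 3' on the gene's strand, with matches to any of the 3 motifs on either strand in capitals. None of the motifs shares letters with another match in these 4. Psma7 (chr2:180042465-180042714, minus strand) holds a CCAAT match, Psmd8 (chr7:29180674-29180923, minus strand) an ETS match CGGAAG read on the other strand, Psmb6 (chr11:70525107-70525356, plus strand) a match to the antioxidant response core TGACNNNGC just before the start, and Psmd12 (chr11:107479278-107479527, plus strand) 1 match to that core and 2 ETS matches.
Psma7: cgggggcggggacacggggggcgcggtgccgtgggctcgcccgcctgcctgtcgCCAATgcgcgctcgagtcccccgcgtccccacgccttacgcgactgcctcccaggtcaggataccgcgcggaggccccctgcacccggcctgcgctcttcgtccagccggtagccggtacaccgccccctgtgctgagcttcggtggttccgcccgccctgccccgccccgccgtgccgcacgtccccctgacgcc
Psmd8: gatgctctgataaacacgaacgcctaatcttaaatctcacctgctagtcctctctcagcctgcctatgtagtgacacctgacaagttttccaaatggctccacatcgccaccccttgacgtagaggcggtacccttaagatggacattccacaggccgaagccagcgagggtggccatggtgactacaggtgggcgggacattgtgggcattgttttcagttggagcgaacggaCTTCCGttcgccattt
Psmb6: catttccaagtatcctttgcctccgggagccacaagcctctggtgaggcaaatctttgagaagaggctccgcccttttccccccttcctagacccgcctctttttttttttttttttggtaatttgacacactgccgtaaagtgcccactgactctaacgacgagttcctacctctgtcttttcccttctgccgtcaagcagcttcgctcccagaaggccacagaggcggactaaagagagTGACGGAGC
Psmd12: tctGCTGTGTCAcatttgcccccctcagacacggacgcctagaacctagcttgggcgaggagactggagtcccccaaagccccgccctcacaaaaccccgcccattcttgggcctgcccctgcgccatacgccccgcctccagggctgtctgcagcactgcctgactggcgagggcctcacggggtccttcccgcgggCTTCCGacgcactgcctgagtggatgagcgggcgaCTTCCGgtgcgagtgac

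Over the 32 genes, TGACNNNGC was found in 6 (18.8%), against 16.9% of the 5158 tested genes with a promoter and 14.0% of all 27025. The 6 were Psmb5, Psmb6, Psmc6, Psmd12, Psmd9 and Psme4. Of these, Psmb6 and Psmd12 were called higher at involution day 1 than at lactation day 7. Psmd9 was called lower, and Psmb5, Psmc6 and Psme4 were not called. CCAAT was found in 12 (37.5%), against 42.5% and 41.1%. CGGAAG was found in 19 (59.4%), against 33.4% and 18.8%, and by class in 4 of 12 core genes, 13 of 17 cap genes and 2 of 3 activators. A match is a run of letters and not a shown binding site, and no test was made of these shares.

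At involution day 1, many subunits rose against lactation day 7. Of the 45 members 23 were higher and 1 was lower, where 14.1% and 11.3% of all probe sets were called higher and lower. The median difference was 0.46 over the members and -0.02 over all probe sets. The count was 9 higher and 0 lower of 18 in the core (0 lower also at an unadjusted p under 0.05), 13 and 1 of 24 in the cap, and 1 and 0 of 3 in the activators. All 24 calls came from the 40 members that passed at every time point.

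Of the alpha subunits of the core, 6 of 7 Psma genes were higher. Psma7 gave signals of 1006, 949 and 866.5 at involution day 1 and 399, 344 and 353 at lactation day 7. Its 2 groups lay far apart, and the difference was 1.36 ± 0.18 (SE, n = 3 per group, adjusted p = 1.3e-07). Psma5 gave 682, 440 and 472 against 197, 240 and 310, a difference of 1.09 ± 0.19 (adjusted p = 2.3e-05), with mouse A of involution day 1 the highest. Psma1, Psma3, Psma4 and Psma6 rose by 0.38 to 0.74, and Psma2, at 1210 against 955, was not called. Calls of Psma1, Psma3, Psma4 and Psma6 were lost without some 1 array, each without mouse A of involution day 1 (adjusted p 0.15, 0.064, 0.31 and 0.07).

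Of the beta subunits, 3 of 11 probe sets were higher, and the difference between the alpha and beta counts was not tested. Among the proteolytic subunits, Psmb6, the caspase-like protease, gave 410, 366 and 340.5 against 276, 215 and 162 and rose by 0.80 ± 0.22 (adjusted p = 0.0052, but 0.064 without mouse C of lactation day 7). Psmb5, the chymotrypsin-like protease, stood at 348 against 307 (0.18 ± 0.23, adjusted p = 0.62, 101558_s_at), and Psmb7, the trypsin-like protease, at 399 against 360 (0.15 ± 0.19, adjusted p = 0.62). Neither was called, and the differences between these subunits were not tested. Psmb10, the inducible counterpart of Psmb7, gave 163, 152 and 137 against 122, 144.5 and 142, which overlapped (0.15 ± 0.20, adjusted p = 0.65). The other beta calls were 160875_at of Psmb1 (432 against 218) and 98557_f_at of Psmb4 (783 against 416). The second kept probe set of Psmb1, 98113_at, showed 411 against 361 and was not called.

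In the cap 4 of 8 Psmc and 9 of 16 Psmd probe sets rose. The ATPase Psmc2 gave 525, 353 and 402 against 198, 206 and 173, a difference of 1.14 ± 0.18 (adjusted p = 5.3e-06). Psmc1 (234 against 155) and 2 of the 3 probe sets of Psmc3 also rose, while Psmc5 (164 against 150) and Psmc6 (851 against 667) were not called. Psmd8, a lid subunit, gave 603, 489.5 and 484 against 214, 200.4 and 195, a rise of 1.36 ± 0.20 (adjusted p = 6.2e-07). Psmd1, the large base subunit, gave 615, 478 and 527.5 against 208, 273 and 245 (1.16 ± 0.26, adjusted p = 0.00054). Psmd4, a ubiquitin receptor, rose by 1.05 ± 0.23 (578, 543 and 474 against 281, 239 and 249, adjusted p = 0.0005). Psmd14, the deubiquitinase of the lid, rose by 0.75 ± 0.24 (193, 142 and 155 against 88.7, 101.7 and 99.3, adjusted p = 0.019). Psmd12 rose by 1.15 ± 0.37 (188.5, 121 and 147 against 77.8, 88.5 and 44.4, adjusted p = 0.018). Calls of Psmd14, Psmd12, Psmc1 and 93734_i_at of Psmc3 were lost without mouse A of involution day 1 (adjusted p 0.11, 0.099, 0.21 and 0.16). The 1 member that fell was Psmd9, an assembly chaperone of the ATPase ring, read by 97929_r_at alone in every comparison. Its signals were 174.5, 231.5 and 188 against 356, 237 and 307 (-0.59 ± 0.21, adjusted p = 0.036). This call was lost without mouse A or mouse C of lactation day 7 (adjusted p 0.17 and 0.091), and without mouse A or mouse C of involution day 1 (0.15 and 0.093).

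Among activators Psme1 rose by 0.85 ± 0.18, from 173, 151.5 and 160.3 to 381, 243 and 267 (adjusted p = 0.00039). Psme3, the nuclear activator, stood at 137 against 226 (-0.72 ± 0.31, adjusted p = 0.078), and Psme4, an activator of a different structure, at 190 against 228 (adjusted p = 0.48). Without mouse A of involution day 1, or without mouse C of lactation day 7, 14 members in place of 23 were called higher, and the median was 0.36 without the former. At the same step 5 of 9 luminal markers were higher, with summed signals of 4980 to 6690 against 3670 to 3810, 5 of 8 fibroblast markers were higher (2030 to 3680 against 1690 to 2320), 2 of 5 basal markers were higher, and 1 of 11 leukocyte, 0 of 8 adipocyte and 0 of 6 endothelial markers were called. Their part in the rise was not tested.

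**Figure D3:**
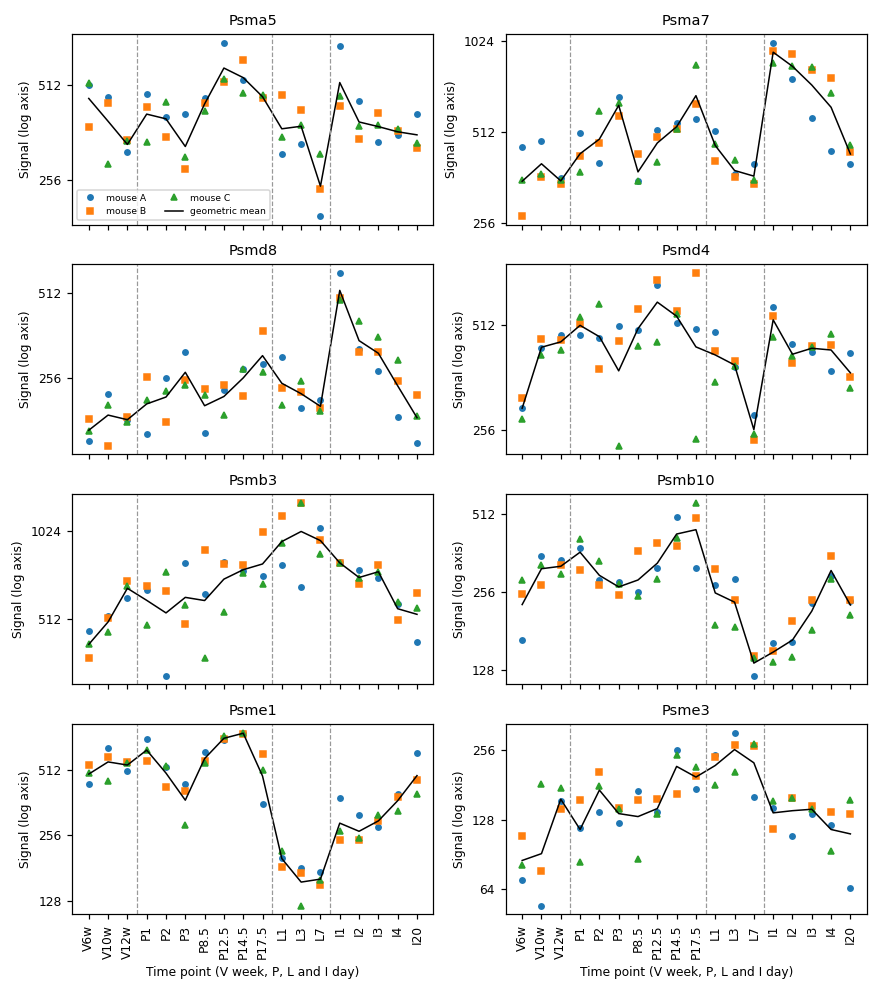
Signal (log axis) of 8 members in each mouse (points) and its geometric mean (line) at the 18 time points. Psma7 and Psmd8 peak at involution day 1 (means 939 and 523), Psma5 and Psmd4 dip at lactation day 7 (245 and 256), Psme1 and Psmb10 fall to 161 and 136 there, and Psmb3 and Psme3 are high in lactation (949 and 226 at day 7).

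At involution day 4, 14 members were higher and 8 lower than at lactation day 7. These are 31.1% and 17.8% of the members, where 22.7% and 21.7% of all probe sets were called, so the lower share was under the background. The median was 0.26 against -0.03 over all. By class the calls were 6 and 2 in the core, 7 and 4 in the cap and 1 and 2 in the activators, and among the 40 they were 14 and 5. The largest rises were 93735_f_at of Psmc3 (208.5, 162 and 238 against 79.5, 77.7 and 79.6, 1.34 ± 0.19, adjusted p = 2.7e-07), Psme1 (396, 384 and 332 against 173, 151.5 and 160.3, 1.19 ± 0.18, adjusted p = 8.7e-07) and Psmb10 (295, 352 and 288 against 122, 144.5 and 142, 1.19 ± 0.20, adjusted p = 5.5e-06). Psmb10 was thus called at day 4 and not at day 1, but the difference between the 2 days was not tested. The other kept probe sets of Psmc3 were not called at involution day 4. The largest fall among members measured at every time point was that of Psmd9 (122, 146 and 147 against 356, 237 and 307, -1.10 ± 0.21, adjusted p = 4.5e-05). The dim Psmd2 (11 against 33.9) and Psmc4 (14.9 against 35.2) were called lower too, but entered only through lactation day 7, so their direction here is set by the filter. The call of Psmc4 was lost without mouse B of lactation day 7 or mouse A of involution day 4 (adjusted p 0.056 and 0.074). Psme3 gave 121, 138 and 93.7 against 160.2, 266 and 272 (-0.96 ± 0.31, adjusted p = 0.0096, with 0.052 without mouse C of lactation day 7 and 0.057 without mouse C of involution day 4). Psmb3, a core beta subunit, fell from 1046.5, 952 and 857 to 577, 506 and 584 (-0.78 ± 0.24, adjusted p = 0.0091), and Psmb7 from 440.5, 352 and 301 to 238, 232 and 246 (-0.59 ± 0.19, adjusted p = 0.0093, and 0.08 without mouse A of lactation day 7). Without mouse C of lactation day 7 the lower calls were 5. At the same step 7 of 8 adipocyte markers (summed signal 9110 to 10600 against 1940 to 2260), 7 of 11 leukocyte (3740 to 4550 against 575 to 705) and 8 of 8 fibroblast markers (8080 to 11600 against 1690 to 2320) were higher. Of 9 luminal markers 5 were higher and 1, Elf5, was lower. Of 6 endothelial markers 4 were higher and 1, Pecam1, was lower, and 2 of 5 basal markers were lower. The part of these markers was not tested. This comparison and that of involution day 1 share the 3 mice of lactation day 7.

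In mid-pregnancy many core subunits rose. At day 14.5, 14 members were higher and 0 lower than at 12 weeks (limma, 23 and 1 at an unadjusted p under 0.05), with 8.82% and 8.85% of all probe sets called higher and lower. The median was 0.47 over the members and -0.09 over all. The calls were 10 of 18 in the core, 3 of 24 in the cap and 1 of 3 in the activators. Within the core they were 6 of 7 Psma probe sets, with a median of 0.70, and 4 of 11 Psmb, and the difference between core and cap was not tested. Psma6 gave 1850.5, 2101.5 and 1660 against 812, 828 and 1035.5, a rise of 1.07 ± 0.21 (adjusted p = 0.00033). Psma2 gave 1046, 1387 and 1112.5 against 712, 568.5 and 678 (0.85 ± 0.17, adjusted p = 0.00042). Psmd5, an assembly chaperone of the cap, gave 317, 408 and 276 against 167, 116 and 172 (1.14 ± 0.32, adjusted p = 0.011), with a call lost without mouse B of either group (adjusted p 0.071 without that of day 14.5 and 0.072 without that of 12 weeks). Psme4 gave 219.8, 268 and 219.5 against 131, 104 and 113 (1.03 ± 0.25, adjusted p = 0.0034). Of the proteases, Psmb7 rose (446 against 298, 0.58 ± 0.19, adjusted p = 0.027), a call lost without any 1 of the 6 arrays, where adjusted p ran from 0.054 to 0.095. Psmb5 (340 against 277), Psmb6 (360 against 370) and Psmb10 (429 against 322) were not called.

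The count of 14 rested on single arrays. It was 5 without mouse B of pregnancy day 14.5, 6 without mouse B and 9 without mouse A of the 12 week group, and 22 when arrays were scaled to equal medians, which moved the median of all probe sets by 0.18. Under each of these, 0 members were lower. With the scaling to equal medians the calls over all probe sets were 13.4% higher and 5.21% lower. At this step 4 of 9 luminal markers were higher (summed signal 4710 to 5170 against 2400 to 4130), as were 4 of 5 basal markers. Lower were 4 of 8 adipocyte, 4 of 11 leukocyte, 3 of 6 endothelial and 1 of 8 fibroblast markers. The part of these markers was not tested. Earlier, at pregnancy day 3, 1 member was higher and 0 lower (limma, 3 and 3 at an unadjusted p under 0.05), with 2.69% and 1.55% of all probe sets called. It was Psma7, at 665, 577 and 639.8 against 360, 342.5 and 354, a rise of 0.83 ± 0.18 (adjusted p = 0.0053).

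**Figure D4:**
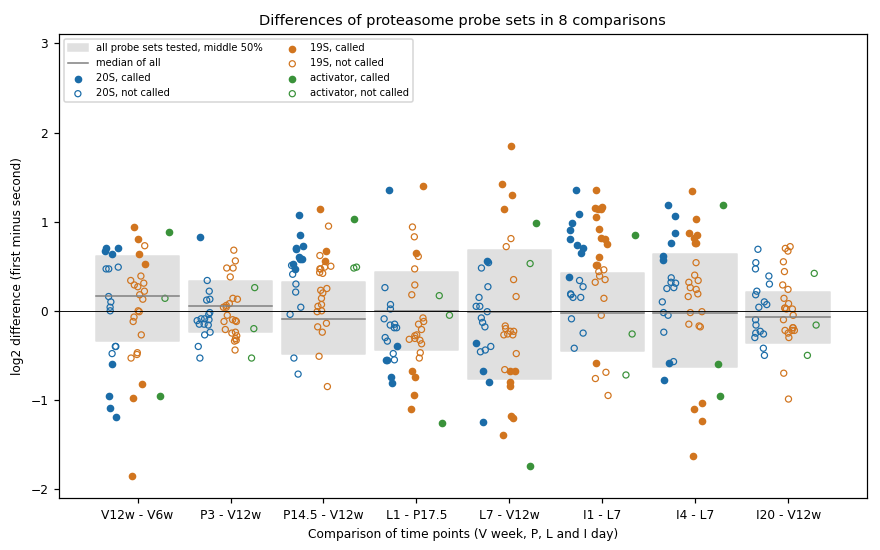
Log2 difference (first time point minus second) of each kept member in the 8 comparisons, filled where called, coloured by class, over the middle 50% (grey band) and median (grey line) of all 8640 probe sets. The members' medians lie above those of all probe sets at pregnancy day 14.5 (0.47 against -0.09) and involution day 1 (0.46 against -0.02).

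At the start of lactation the balance was towards lower values. On day 1, 3 members were higher and 10 lower than at pregnancy day 17.5, with 10.1% and 13.2% of all probe sets called, and the median was -0.21 against 0.00. Lower calls were 5 of 18 in the core, 4 of 24 in the cap and 1 of 3 in the activators. Psme1 gave 202, 183 and 217 against 355, 607 and 510, a fall of 1.26 on the log2 scale (SE 0.18, adjusted p = 2.1e-06). Psmb10 gave 273, 313 and 191 against 316, 496 and 566 (-0.81 ± 0.20, adjusted p = 0.0028). Psmd10, known as the oncoprotein gankyrin and an assembly chaperone, gave 41.9, 27.2 and 35.4 against 73.9, 97.1 and 55.2 (-1.10 ± 0.25, adjusted p = 0.0011). Psma6 fell from 1690 to 1010 (-0.74 ± 0.21, adjusted p = 0.0096). Psmd14 was also called lower (90.5, 163 and 87.9 against 214, 215 and 133), although its groups overlap. The calls in the other direction were Psmd9, whose groups overlap too (219, 339 and 268 against 188, 231 and 119), and the dim Psmd2 and 98556_at of Psmb4. Among the 40 always-measured members the count was 1 higher and 10 lower. Without mouse C of pregnancy day 17.5, the one low in the cap, 1 member was higher and the median was -0.33, 1 was higher also without mouse B of either group, and without mouse C of lactation day 1 the lower calls were 6. Marker genes fell at the same step: 7 of 8 adipocyte (summed signal 2670 to 4900 against 7320 to 9900), 6 of 8 fibroblast (3300 to 3820 against 5350 to 9250), 4 of 11 leukocyte (732 to 864 against 1300 to 2150), 2 of 9 luminal and 1 of 5 basal markers were lower, and their part was not tested. The calls of Psmd14 and Psmd9 were lost without some single arrays (adjusted p up to 0.12 and 0.24).

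On lactation day 7, 6 members were higher and 12 lower than at 12 weeks. These are 13.3% and 26.7% of the members, where 24.3% and 27.2% of all probe sets were called, so neither share was above the background. With array quality weights 10 members were higher, but the share of all probe sets called with these weights was not counted. The median was -0.20 against -0.01. Among the 40 the count was 4 and 12. The largest falls were Psme1 (173, 151.5 and 160.3 against 504.5, 557 and 552.5, -1.74 ± 0.18, adjusted p = 1.2e-10), 93735_f_at of Psmc3 (79.5, 77.7 and 79.6 against 206, 184 and 231, -1.39 ± 0.19, adjusted p = 9.2e-08) and Psmb10 (122, 144.5 and 142 against 342, 324 and 302, -1.25 ± 0.20, adjusted p = 1.7e-06). The ubiquitin receptor Psmd4 (256 against 458), the deubiquitinase Psmd14 (96.4 against 168), the protease Psmb6 (213 against 370), the ATPase Psmc2 (191 against 307) and Psmd1 (240 against 545) fell as well. Higher were Psma2 (955 against 650), the activator Psme4 (252, 219.9 and 215 against 131, 104 and 113, 0.99 ± 0.25, adjusted p = 0.0011), and the assembly chaperones Psmd5 (366 against 149) and Psmd9 (296 against 134). The other higher calls were the dim Psmc4 (35.2 against 13.1) and Psmd2 (33.9 against 3 signals under 9.4), which entered only through lactation day 7, so that their direction is set by the filter. At the same step 7 of 8 adipocyte (1940 to 2260 against 13400 to 13800), 8 of 11 leukocyte (575 to 705 against 2820 to 3490) and 7 of 8 fibroblast markers were lower. Of 6 endothelial markers 5 were lower and 1, Pecam1, was higher. Of 9 luminal markers 3 were higher and 3 lower, and 2 of 5 basal markers were higher. The part of these markers was not tested.

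The immunoproteasome and antigen processing genes, a list that also holds Psmb10, were lower at lactation day 7 than at 12 weeks, as Psme1 was. All 9 were called lower there (median -1.01), where 27.2% of all probe sets were. At lactation day 1, 6 were lower than at pregnancy day 17.5, where 13.2% of all were. At involution day 4, 6 were higher than at lactation day 7, where 22.7% of all were. At involution day 1, 1 was higher and 1 lower, where 14.1% and 11.3% of all were. Tap1 was the higher one (215 against 63.8, 1.75 ± 0.28, adjusted p = 5.1e-06) and B2m the lower one (826 against 1370, adjusted p = 0.014). The list's summed signal was then 5210 to 6760, against 6460 to 7360 at lactation day 7, while Psme1 had risen. Most of that sum came from H2-D1, H2-K1 and B2m (means of 2030, 1770 and 826 at involution day 1), so it says little of the other genes. Psmb9 stood at 78.8 against 45 and was not called (adjusted p = 0.075). Psmb8, the inducible chymotrypsin-like protease, went from 573 at 12 weeks to 150 at lactation day 7 (-1.93 ± 0.19, adjusted p = 3.3e-11) and stood at 205 at involution day 1 (0.45 ± 0.19, adjusted p = 0.081) and 456 at day 4 (1.60 ± 0.19, adjusted p = 6.2e-09). Of 8 measured interferon-responsive genes, 4 were lower at lactation day 7, 2 higher at involution day 1 and 3 higher at day 4, where 27.2%, 14.1% and 22.7% of all probe sets were called in those directions. On so short a list these counts show little beside those shares.

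Of 30 other genes of the ubiquitin-proteasome pathway 18 were measured. At involution day 1, 5 were higher than at lactation day 7 and 1 was lower, with a median of 0.20, where 14.1% and 11.3% of all probe sets were called. Higher were Nfe2l2, a stress-responsive transcription factor (373 against 163, 1.19 ± 0.21, adjusted p = 3.5e-05), and the cap subunit gene Sem1 (672 against 390, 0.79 ± 0.24, adjusted p = 0.013). So were the deubiquitinase Usp14 (120 against 70.5) and Ufd1 (99.4 against 53.1), a cofactor of the ATPase Vcp. The assembly chaperone Psmg2 was higher too, but dim (24.8 against 11.9, with the floor at 9.4). The lower one was the assembly chaperone Psmg4 (180 against 269). Nfe2l1, which drives proteasome genes when the proteasome is inhibited, stood at 569 against 483 and was not called (adjusted p = 0.51). At pregnancy day 14.5, 3 were higher than at 12 weeks (Psmg1, Psmg4 and Uchl5) and 0 lower. Of all probe sets 8.82% and 8.85% were called at that step. At lactation day 7 the chaperones Psmg3 (260 against 86.3) and Psmg4 (269 against 124) were higher than at 12 weeks. Psmg2 (11.9 against 43.6), Sem1, Ufd1 and Ubqln2 (13 against 53.3) were lower, and Psmg2 and Ubqln2 lay near the floor at lactation day 7. The 2 higher and 4 lower of 18 lay under the shares of all probe sets (24.3% and 27.2%).

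Between 6 and 12 weeks of age 9 members were higher and 8 lower at 12 weeks, with 17.2% and 12.5% of all probe sets called, and the median was 0.13 against 0.17. By calls, the alpha subunits counted 0 higher and 3 lower of 7 probe sets and the beta subunits 4 and 1 of 11. Psmd12 gave 92.7, 74.6 and 121 against 404, 291 and 335 (-1.85 ± 0.37, adjusted p = 0.00054), and Psma3 gave 953, 929 and 1017 against 2495, 1894 and 2248 (-1.19 ± 0.21, adjusted p = 0.00022). The largest rises, Psmd3, Psme3 and Psmd13 (0.94, 0.88 and 0.81), lost their calls without single arrays (adjusted p up to 0.13, 0.12 and 0.15), and higher calls numbered 1 to 5 over the 6 such fits. When arrays were scaled to equal medians, 0 members were higher and 12 lower, the median was -0.09 and that of all probe sets moved by -0.20, and the calls over all were then 8.75% higher and 17.1% lower. The 3' to 5' ratio of beta-actin, a measure of RNA quality, was 3.75 ± 0.363 (SD, n = 3) at 6 weeks and 1.99 ± 0.487 at 12 weeks. With it as a covariate 0 members were higher and 3 lower, and the calls over all probe sets were then 2.05% higher and 1.99% lower. At this step 6 of 9 luminal markers were higher (summed signal 2400 to 4130 against 1400 to 1490). Of 8 fibroblast markers 5 were lower (13800 to 15400 against 23900 to 25700) and 1 was higher. Of 5 basal markers 1 was higher and 1 lower, 2 of 6 endothelial markers were lower and 1 of 11 leukocyte markers was higher. The part of these markers was not tested.

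At involution day 20 the members showed no called difference from the virgin gland. Of the 45, 0 were called higher and 0 lower against 12 weeks (limma, 7 higher and 2 lower at an unadjusted p under 0.05), where 1.27% and 1.37% of all probe sets were. The median was 0.02 over the members and -0.07 over all, and single differences ran from -0.99 to 0.72. With array quality weights 1 member was higher and 1 lower, and the share of all probe sets called with these weights was not counted. The 12 week mice are shared by this comparison and those of 6 weeks, pregnancy days 3 and 14.5 and lactation day 7.

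Probe sets of 1 gene did not always behave alike. For Psmd11, a lid subunit, 94796_at and 160305_at fell at lactation day 7 against 12 weeks (229 against 524 and 85.1 against 136), while 160304_r_at stood at 122 against 69.7, and at involution day 4 the first pair rose and the last fell. Without mouse C of lactation day 7 the calls of 160305_at at lactation day 7 (adjusted p 0.06) and of 94796_at (0.059) and 160304_r_at (0.079) at involution day 4 were lost. For Psmb4, 98557_f_at fell at lactation day 1 (582 against 854) and the dim 98556_at rose (30.9 against 12), both lost without some single arrays (adjusted p up to 0.13 and 0.15). The 3 probe sets of Psmc3 ranged from a fall of 1.39 on the log2 scale at lactation day 7 (93735_f_at) to differences of -0.27 and -0.20 that were not called. The suffix f marks probe sets that may also detect related sequences, and those of Psmd12, Psma3, Psmb7, 98557_f_at of Psmb4, and 93735_f_at and 100225_f_at of Psmc3 are of that kind.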

How the data were processed

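Glands of 54 mice were profiled on Affymetrix arrays. The deposited values are signal intensities that the authors computed with MAS5, per the submitters' processing notes (version not given in the sources used here). They were checked to be linear: the 2% trimmed mean of each array was 100.05 to 100.07. Intensities under 9.4 (the 25th percentile, 20.5% to 29.7% of an array) were set to it and the deposited values were then taken to log2. Control probe sets (66) were left out, and 8640 probe sets stayed, those with all 3 mice of some time point above 22.8 (the 40th percentile). Symbols came from the platform annotation (10833 probe sets with 1, 396 with several, 1193 with none).

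All arrays were fitted together in limma 3.58.1 (R 4.3.3), with a mean for each time point and an intensity trend (36 residual and 6.8 prior degrees of freedom, median standard error 0.30). The scripts were tested on simulated data. The 3 mice of a time point are separate animals, and the number of arrays limits the precision. The letters A, B and C do not pair mice: same-letter deviations correlated from -0.09 to 0.08. Named genes were the 3 largest called rises and falls of each comparison, the catalytic subunits, ATPases and activators, and Psmd4 and Psmd14 for ubiquitin handling. Those with the 5 widest and 3 narrowest ranges and probe sets of 1 gene that disagree were named too, and the text gives a part of them all. Members named beyond that rule were chosen after their values were seen. The members and lists were chosen with earlier results of these data known. Alternatives changed the floor, filter, scaling, trend, weights and arrays. Figures were drawn with matplotlib 3.10.9 and tables handled with pandas 2.3.3 under Python 3.11.15.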

Additional observations from a re-analysis of the deposited data

How the results depend on the processing

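Over the comparisons 109 calls of members were made. None changed sign under the alternatives run, 60 were kept without each of the arrays compared, and 49 were lost without at least 1. With the replicate block all 109 were kept, and 15 members were higher at pregnancy day 14.5; it changed no count by over 1.5 times. Limits below are counts of members unless said otherwise.

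Leaving out 1 array gave these ranges. Higher at 12 against 6 weeks were 1 to 5. At pregnancy day 3, 0 to 1 were lower and the median difference was -0.18 to 0.01. At pregnancy day 14.5, 5 to 11 were higher. At lactation day 1, 1 to 3 were higher, 6 to 9 lower, and the median was -0.33 to -0.17. At involution day 1, 14 to 21 were higher, 0 to 1 lower, and the median was 0.36 to 0.54. At involution day 4, 5 to 6 were lower.

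Median scaling gave 0 higher and a median of -0.09 at 12 against 6 weeks, 22 and 0.66 at pregnancy day 14.5, 0 lower at involution day 1 and a median of 0.17 at involution day 20. Of all probe sets it called 8.75% higher at 12 against 6 weeks, 13.4% higher at pregnancy day 14.5 and 9.79% lower at involution day 1. Array quality weights gave 13 lower at 12 against 6 weeks, 3 higher and 2 lower at pregnancy day 3, 25 and 1 at day 14.5, 1 higher at lactation day 1, 10 higher at lactation day 7, 2 lower at involution day 1, and 1 and 1 at day 20. A fit of only the 6 arrays compared gave 13 lower at 12 against 6 weeks, 2 higher at pregnancy day 3, 24 and 2 at day 14.5, 1 and 5 at lactation day 1, and 3 lower at involution day 1. The beta-actin covariate gave 0 and 3 at 12 against 6 weeks and 1 lower at pregnancy day 3. Quantile normalization, no filter, no intensity trend or a floor at the 40th percentile each gave 2 lower at involution day 1, and no floor gave 1 higher at lactation day 1. Among members measured at all 18 time points, an alternative chosen after seeing the data, 1 was higher at lactation day 1 and 5 lower at involution day 4. Adding Psme3ip1, chosen likewise, changed no count of calls in the 8 comparisons. The causes were not tested. Psmd2, Psmc4 and 98556_at of Psmb4 lie near the floor.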
